A study of Mus musculus with 3 samples.

Results

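The genes described here are 10 markers of intestinal tuft cells, Dclk1, Trpm5, Pou2f3, Il25, Il17rb, Gfi1b, Alox5ap, Alox5, Avil and Rgs13. Their members were taken as every probe set of the array whose single gene symbol in the platform annotation is one of these names. That gave 20 of the 45101 probe sets, and each of the 10 genes had at least 1. Dclk1 had 9 probe sets, designed from 6 different transcript records, Trpm5 had 3 from 2 records, and the other genes had 1 each, so probe sets of a gene are not independent measurements. RNA came from follicle-associated epithelium of the mouse small intestine, the layer that covers the lymphoid follicles of Peyer's patches. The groups are RBP-J depleted epithelium with 2 arrays, and wild type epithelium with 1 array. Depleted mice carried the VillinCre-Rbpjflox/flox genotype, in which the Villin promoter drives Cre recombinase in intestinal epithelial cells, and RBP-J is the DNA-binding partner through which Notch receptors act on transcription. All 3 samples are labelled C57BL/6 and untreated, and the labels give no age and do not say whether an array holds 1 animal or a pool. Cells that do not use the Villin promoter, such as lymphocytes of the follicle, keep their Rbpj.

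Tuft cells are rare chemosensory cells of the gut epithelium. They read the lumen through taste-type G protein signalling that opens the cation channel TRPM5, and they release the cytokine IL-25 and cysteinyl leukotrienes, which act on type 2 innate lymphoid cells. POU2F3 is the transcription factor that the lineage needs, and GFI1B is a zinc finger repressor found in it.

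The upstream sequences of the member genes are given first, since Notch signalling reaches genes through DNA that RBP-J binds and the tuft cell lineage through DNA that POU2F3 binds. RefSeq windows of build GRCm38.p6 covering the 250 bases before a start site were matched for 7 of the 10 genes, with 2 windows for Dclk1 and 8 in all. Pou2f3, Il25 and Alox5ap are named only. The 4 windows below are shown because Dclk1 has 2 annotated starts and the most probe sets, Gfi1b was higher in both depleted arrays by nearly the same amount, and Rgs13 is the other gene whose window holds the searched RBP-J core. They are written 5′ to 3′ on the gene's strand, at chr3:55242114-55242363 (plus strand), chr3:55461478-55461727 (plus strand), chr2:28621983-28622232 (minus strand) and chr1:144177373-144177622 (minus strand). Capitals mark the RBP-J core.
Dclk1, upstream start: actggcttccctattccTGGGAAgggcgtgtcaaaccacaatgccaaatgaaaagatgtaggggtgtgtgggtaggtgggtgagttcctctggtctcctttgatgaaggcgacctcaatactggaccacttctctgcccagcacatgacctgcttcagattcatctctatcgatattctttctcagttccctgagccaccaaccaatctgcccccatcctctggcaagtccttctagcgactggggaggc
Dclk1, downstream start: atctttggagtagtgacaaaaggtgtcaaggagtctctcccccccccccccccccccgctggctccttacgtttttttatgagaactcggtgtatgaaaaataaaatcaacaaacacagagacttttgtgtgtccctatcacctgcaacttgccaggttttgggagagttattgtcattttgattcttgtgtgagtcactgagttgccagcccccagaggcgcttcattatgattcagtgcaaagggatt
Gfi1b: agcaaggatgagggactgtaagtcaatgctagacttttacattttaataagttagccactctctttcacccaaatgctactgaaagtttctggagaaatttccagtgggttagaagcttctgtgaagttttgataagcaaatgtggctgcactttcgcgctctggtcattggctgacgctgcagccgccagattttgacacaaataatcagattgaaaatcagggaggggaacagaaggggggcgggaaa
Rgs13: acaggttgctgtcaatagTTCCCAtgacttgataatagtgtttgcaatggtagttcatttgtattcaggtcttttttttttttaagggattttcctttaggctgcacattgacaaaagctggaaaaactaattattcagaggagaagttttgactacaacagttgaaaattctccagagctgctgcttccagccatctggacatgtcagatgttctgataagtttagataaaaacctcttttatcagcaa

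The RBP-J core searched was TGGGAA or its reverse complement TTCCCA, on both strands. It was present in 2 of the 8 member windows, at 233 bases before the upstream start of Dclk1 on the gene's strand and at 232 bases before the start of Rgs13 on the opposite strand. Over all 32851 RefSeq windows of that length, 21.6% held it. The octamer bound by POU family factors, ATGCAAAT or its reverse complement ATTTGCAT, was in 0 of the 8 member windows and in 1.60% of all windows. The matches do not overlap each other, and a match describes the sequence only.

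Values are MAS5 intensities in multiples of each array's median. Differences are given on the scale log2(value + 0.248), depleted minus wild type, with a pseudocount of 0.248 (the 25th percentile over the whole table) that keeps very dim probe sets from giving large ratios. Over the 27027 probe sets tested, the median difference was -0.02 for depleted array 1 and 0.18 for depleted array 2, so a difference of 0.18 there is where that array lies as a whole. Rbpj itself read 2.72 and 5.74 in the depleted arrays against 7.15 in the wild type array at its brightest probe set, 4.14 and 4.92 against 5.37 at another, and 2.30 and 4.21 against 3.79 at the remaining probe set, with none of the 3 called. The sources used here do not place these probe sets inside or outside the floxed part, so they may not check the deletion. Probe sets of Xist read 17.9 or more in both depleted arrays and at most 0.495 in wild type, and those of the Y-linked genes Eif2s3y and Kdm5d read at most 0.393 in the depleted arrays and at least 2.24 in wild type, so genotype and sex cannot be told apart. Epithelial markers were high on every array, with Epcam at 129 and 153 against 109. Control probe sets at the 3′ end of Gapdh read 2.28 times those at its 5′ end in depleted array 1 and 1.54 times in depleted array 2, against 1.83 times in wild type. For Actb these ratios, which grow as RNA degrades, were 1.15 and 1.02 against 1.11.

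No tuft cell gene passed the test between the genotypes, and 8 of the 10 read above the array median on all 3 arrays at their brightest probe set, Alox5 and Il25 being the others. Limma with Benjamini-Hochberg adjustment called 0 of the 17 member probe sets bright enough to be tested, while it called 24 of all 27027 probe sets, or 0.0888%. Each of the 17 had a limma adjusted p = 0.9998, and 1 of them, a Dclk1 probe set, had an unadjusted p under 0.05, as did 2.26% of all tested probe sets. Among the probe sets called over the whole array were those of Xist, Eif2s3y and Kdm5d, which split the arrays by sex. That background count is therefore partly one of sex-linked genes. Standard errors of the 17 differences lay between 0.50 and 0.64 on the log2 scale. The smallest difference called on the whole array, in either direction, was 2.43, while the largest among the 17 was 1.09. A count of 0 called therefore says little about changes smaller than that. The wild type array has no replicate, so limma takes the spread from the 2 depleted arrays, and nearly all of it from their gaps over probe sets of like intensity. The labels do not say that the depleted samples came from separate animals, so this spread may be technical.

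The tuft cell genes read differently on the 2 depleted arrays, with no test of that difference, since each is a single array. Of the 20 probe sets, 19 read higher in depleted array 1 than in depleted array 2, where 41.7% of all 45037 probe sets that are not controls did. The exception was Il25, whose signal was near the bottom of each array. Set against wild type, 17 of the 20 were higher in depleted array 1, where 49.4% of all probe sets were, and 12 of the 20 in depleted array 2, where 59.1% were. The 20 had a median difference of 0.70 in depleted array 1 and 0.09 in depleted array 2, beside -0.00 and 0.10 over all probe sets. In depleted array 1 the tuft cell probe sets therefore lay above the array's own median difference, and in depleted array 2 they lay near it. Dclk1 gave 9 of the 20. At the brightest probe set a gene, the 9 tested members had medians of 0.62 and 0.05, beside -0.00 and 0.22 over all genes. The 10 tested probe sets of other members had 0.56 and -0.07, beside -0.02 and 0.18 over all tested probe sets. Taken in these ways, the members lay under the median of depleted array 2. Both depleted arrays are set against the same wild type array, so their differences are not independent of each other.

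**Figure D1:**
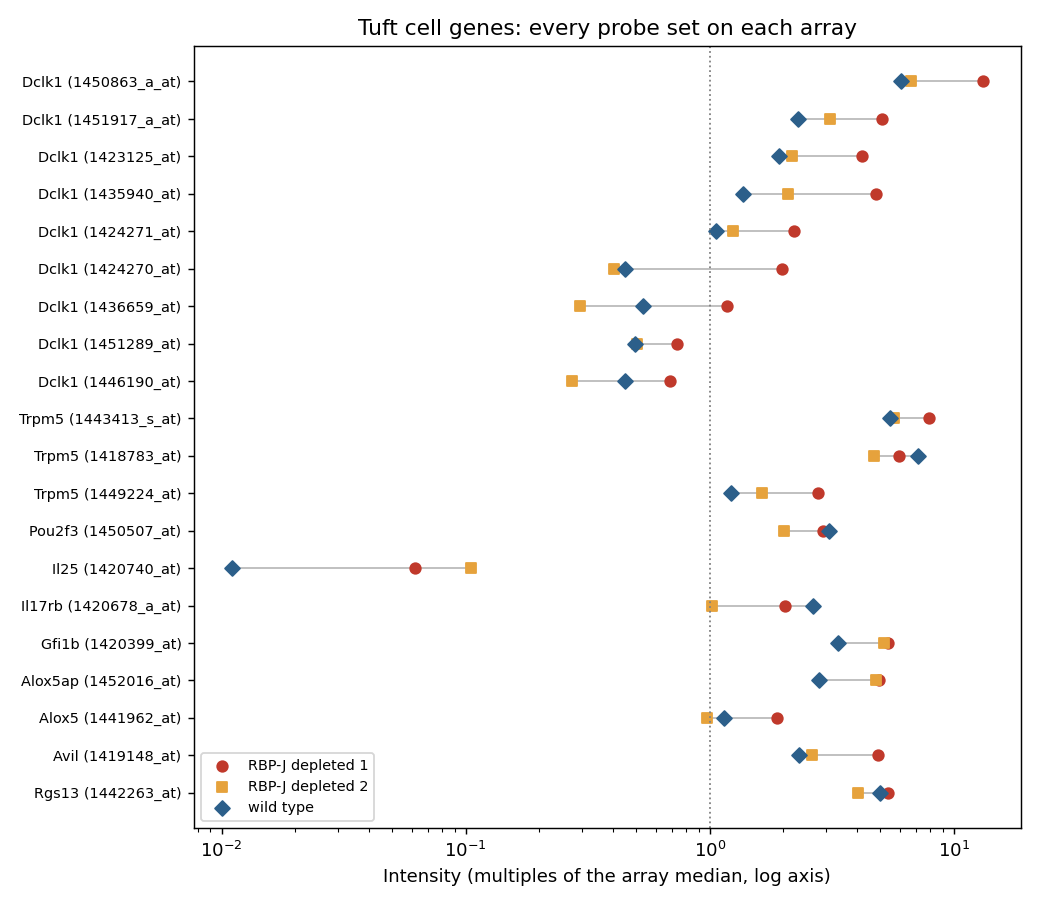
Intensity of each of the 20 tuft cell gene probe sets (rows) in multiples of the array median, on a log axis, with a red circle for RBP-J depleted array 1, an orange square for RBP-J depleted array 2 and a blue diamond for the wild type array; a grey line joins the lowest and highest value and the dotted line marks the array median. The red circle lies right of the orange square in 19 of 20 rows, and Il25, at 0.105 or less, lies far left of the others.

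Sorted by side, 12 of the 20 probe sets were higher than wild type in both depleted arrays, where 34.9% of all probe sets were, and 3 were lower in both, where 26.2% were. Among the 17 tested, 10 were higher in both, against 35.9%, and 3 lower in both, against 22.9%. When each depleted array was shifted to a median difference of 0, or scaled to the same 75th percentile, 6 of the 17 were higher in both, against 30.1% and 31.7% of all tested probe sets, and the count lower in both was 3. The same 6 were higher in both under these scalings: 3 probe sets of Dclk1, 1 of Trpm5, and those of Gfi1b and Alox5ap. The 4 that dropped out were 2 of Dclk1, the brightest included, 1 of Trpm5 and that of Avil. With the median difference at 0, their differences in depleted array 2 were -0.05 and -0.03 for Dclk1, -0.13 for Trpm5 and -0.02 for Avil. After quantile normalization 8 of the 17 were higher in both, against 30% of all tested probe sets, and 3 were lower in both. In bulk RNA, fewer cells of a type and less RNA per cell cannot be told apart.

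Dclk1 encodes a microtubule-associated kinase and is the most used tuft cell marker in mouse intestine. Its brightest probe set (1450863_a_at) read 13.2 and 6.68 in the depleted arrays and 6.07 in wild type. Depleted array 1 was 2.17 times wild type and depleted array 2 was 1.10 times, both higher, as for 35.9% of all tested probe sets. On the log2 scale depleted array 2 differed by 0.13, under that array's median of 0.18, and by -0.05 with the median difference at 0. Its side is therefore not settled. The depleted arrays were farther from each other than depleted array 2 was from wild type. The difference was 0.61 (SE 0.50, limma adjusted p = 0.9998). The probe set with the lowest unadjusted p (1435940_at) read 4.79 and 2.10 in the depleted arrays against 1.37 in wild type. Both depleted arrays were above wild type, at 3.50 times its level in depleted array 1 and 1.53 times in depleted array 2, and the difference was 1.09 (SE 0.54, limma adjusted p = 0.9998).

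Of the other Dclk1 probe sets above the array median, 1451917_a_at read 5.10 and 3.10 in the depleted arrays against 2.31 in wild type, 1423125_at read 4.22 and 2.17 against 1.93, and 1424271_at read 2.21 and 1.25 against 1.06. In all 3 depleted array 1 was the highest and wild type the lowest. Each of the 9 Dclk1 probe sets read above wild type on depleted array 1, with a median of 2.19 times its level, and the 5 above the array median lay between 2.08 and 3.50 times. In depleted array 2 the 9 had a median of 1.10 times wild type, and the 5 lay between 1.10 and 1.53 times. There 6 of the 9 were above wild type and 3 below. Of the 3 probe sets below, 1424270_at read 1.97 and 0.407 in the depleted arrays against 0.449 in wild type, and 1436659_at read 1.18 and 0.294 against 0.531. Both passed the intensity filter, a mean of 0.598, only through depleted array 1, since their means without it were 0.428 and 0.412. The remaining 2 dim probe sets did not pass: 1451289_at read 0.734 and 0.505 against 0.493, and 1446190_at read 0.690 and 0.272 against 0.448. The sources used here do not say which annotated start of Dclk1 each probe set follows.

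Avil encodes advillin, an actin-binding protein of the villin family that marks the apical bundle of tuft cells. It read 4.87 and 2.63 in the depleted arrays and 2.32 in wild type, and followed the pattern of Dclk1, at 2.10 times wild type in depleted array 1 and 1.13 times in depleted array 2. The difference was 0.58 (SE 0.53, limma adjusted p = 0.9998).

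Trpm5, the channel through which tuft cells depolarise after taste-type signals, gave readings that differed by probe set. Its brightest probe set (1443413_s_at) read 7.88 and 5.66 in the depleted arrays against 5.46 in wild type. The next (1418783_at) read 5.94 and 4.69 against 7.11, so here wild type was highest. The dimmest (1449224_at) read 2.77 and 1.63 against 1.22. The last 2 were designed from the same transcript record and stood on opposite sides of wild type, with differences of -0.41 (SE 0.51) and 0.70 (SE 0.56), so the data give no direction for Trpm5. All 3 shared the order of the depleted arrays, depleted array 1 reading between 1.27 and 1.70 times depleted array 2.

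The transcription factors lay on opposite sides of wild type. Gfi1b read 5.36 and 5.18 in the depleted arrays against 3.35 in wild type, a mean of 5.27 ± 0.122 (SD, n = 2) in the depleted arrays. The depleted arrays lay close together and both above wild type, at 1.60 and 1.55 times its level, and the difference was 0.62 (SE 0.51, limma adjusted p = 0.9998). Pou2f3 read 2.91 and 2.02 in the depleted arrays against 3.07 in wild type. It was lower than wild type in both, with -0.07 in depleted array 1 and -0.55 in depleted array 2, and the difference was -0.31 (SE 0.54). A single probe set stood for each factor. Erythroid cells and megakaryocytes were also listed among cell types that share a member gene, and their markers were dim. Of 8 listed 6 had a probe set, 3 higher than wild type in depleted array 1 and 5 in depleted array 2. Over all probe sets the shares were 49.4% and 59.1%. Summed levels were 2.06 and 2.89 against 1.99. Which cells gave the Gfi1b signal was not tested.

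The leukotriene genes included the member with the closest agreement between depleted arrays. Alox5ap encodes FLAP, the membrane protein that hands arachidonic acid to 5-lipoxygenase. It read 4.92 and 4.82 in the depleted arrays and 2.80 in wild type, with a mean of 4.87 ± 0.0714 (SD, n = 2) in the depleted arrays. The difference was 0.75 (SE 0.52, limma adjusted p = 0.9998), and the separate arrays gave 0.76 and 0.74. The standard error is far wider than the gap between these 2 readings, since that estimate is pooled over probe sets of like intensity. Alox5, the 5-lipoxygenase itself, read 1.89 and 0.971 in the depleted arrays against 1.15 in wild type. Wild type lay between the depleted arrays, and the difference was 0.21 (SE 0.58). Macrophages, dendritic cells and granulocytes were listed among cell types that share a member gene. Of their 12 markers 11 had a probe set, 3 higher than wild type in depleted array 1 and 8 in depleted array 2. Over all probe sets the shares were 49.4% and 59.1%. Summed levels were 67.1 and 91.1 against 73.0, most of each from Lyz2, at 55.7 and 70.0 against 56.8. Which cells gave the Alox5ap and Alox5 signal was not tested.

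The cytokine arm was dim or lower. Il25 read 0.062 and 0.105 in the depleted arrays against 0.011 in wild type. At these readings 10.5%, 14.5% and 0.979% of all probe sets were dimmer on the same arrays, all 3 values lay under the pseudocount, the probe set was not tested, and no fold is given. Il17rb, a subunit of the IL-25 receptor that tuft cells themselves carry, read 2.04 and 1.02 in the depleted arrays against 2.64 in wild type. Both depleted arrays were lower, at 0.771 and 0.388 times wild type, and the difference was -0.76 (SE 0.56, limma adjusted p = 0.9998). Of the 17 tested probe sets it had the most negative difference.

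Rgs13, a regulator of G protein signalling found in tuft cells and also in germinal centre B cells and mast cells, read 5.36 and 4.03 in the depleted arrays against 5.002 in wild type. Wild type lay between the depleted arrays, and the difference was -0.10 (SE 0.51). Of 7 germinal centre B cell markers listed 5 had a probe set, and none was at 0. Of the 5, 3 were higher than wild type in each depleted array, where 49.4% and 59.1% of all probe sets were. The summed level of the 5 was 7.11 and 7.25 in the depleted arrays against 7.15 in wild type. Most of each sum was Bcl6, at 5.13 and 5.04 against 4.89, so the sum says little about the other markers. The other Bcl6 probe set read 4.34 and 6.53 against 3.23. Mast cell markers were dim, with 11 of 11 measured, 4 higher than wild type in depleted array 1 and 5 in depleted array 2, both under those shares, and summed levels of 6.20 and 5.67 against 6.51. Of the 11, 4 lay under the pseudocount on all 3 arrays and none was at 0 on all 3. The brightest of them was Kit, at 3.20 and 1.68 against 3.41. The other Kit probe set read 1.32 and 1.05 against 1.12, with wild type between the depleted arrays.

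**Figure D2:**
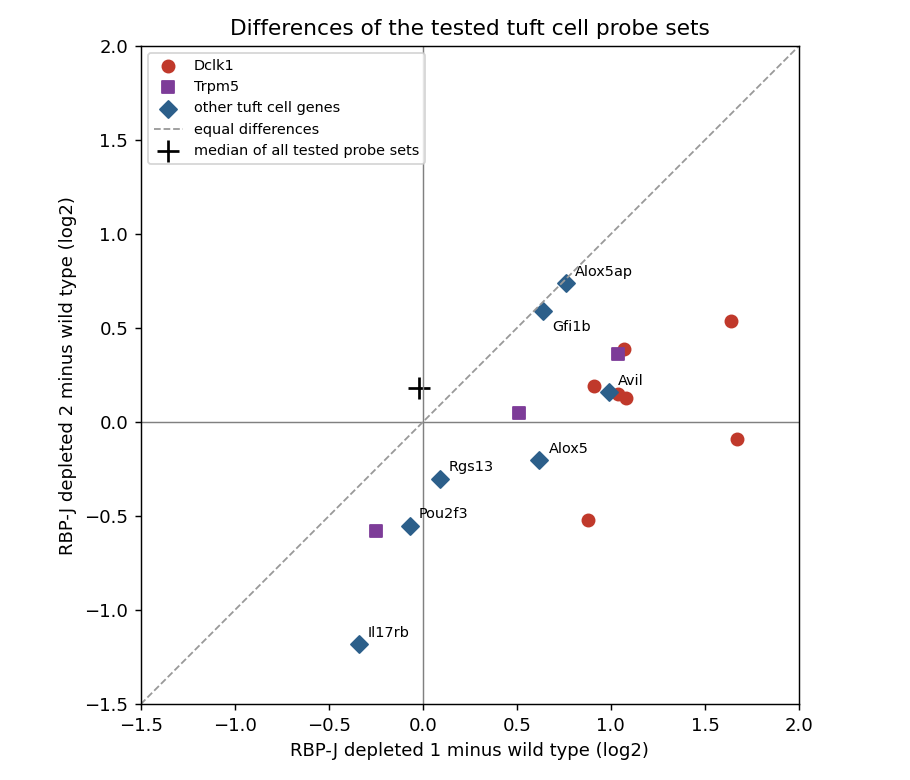
Log2 difference from wild type of the 17 tested tuft cell probe sets in RBP-J depleted array 1 (horizontal) and array 2 (vertical), with circles for Dclk1, squares for Trpm5 and diamonds for the other genes; the dashed line marks equal differences and the cross the median of all tested probe sets, at -0.02 and 0.18. All 17 points lie below the dashed line, Alox5ap and Gfi1b close to it, and Il17rb at -0.34 and -1.18 is the lowest.

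Further tuft cell genes were not called either. Of 74 further symbols listed for taste signalling, eicosanoid synthesis, the IL-25 circuit and tuft cell structure and identity, 63 had a probe set of that symbol and 48 were tested at the brightest probe set. Limma called 0 of the 48, and 0 of them had an unadjusted p under 0.05, where the same fit over all probe sets called 8 of the 11885 genes tested at their brightest probe set, or 0.0673%. Of the 48, 20 were higher than wild type in both depleted arrays and 8 lower in both, against 39.0% and 19.5% of all genes. Their median difference was 0.10 in depleted array 1 and 0.19 in depleted array 2, with -0.00 and 0.22 over all genes. Depleted array 1 read above depleted array 2 in 24 of the 48, against 33.0% of all genes, and in 9 of the 9 tested members at their brightest probe set.

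Among the 5 tested genes of taste signalling, 3 were higher in both depleted arrays and 1 lower in both, where 39.0% and 19.5% of all genes were. Rgs2, a regulator of G protein signalling, read 20.5 and 11.4 in the depleted arrays against 10.1 in wild type, the order seen for Dclk1. Its 2 next brightest probe sets read 17.9 and 9.18 against 9.92, and 17.2 and 10.6 against 10.2, so depleted array 2 had no settled side. Itpr3, the receptor that releases calcium from stores, read 2.89 and 3.22 against 2.26. Plcb2, the phospholipase of taste cells, read 1.67 and 1.42 against 1.74. Gnai2, an inhibitory G protein subunit of many cell types, read 38.5 and 59.0 against 36.8. Itpr3 and Gnai2 were thus higher in both depleted arrays, with depleted array 2 the highest, and Plcb2 was lower in both. Gng13, named here with its values already known, is a G protein subunit of taste and tuft cells. At the brighter of its 2 probe sets it read 7.001 and 10.7 against 9.89, and the dimmer is not given here.

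Of the 4 tested eicosanoid genes, 1 was higher and 1 lower in both depleted arrays, where 39.0% and 19.5% of all genes were. Pla2g4a, the cytosolic phospholipase that frees arachidonic acid, read 4.06 and 4.14 in the depleted arrays against 2.94 in wild type, near each other as for Alox5ap, with a difference of 0.45 (SE 0.52, limma adjusted p = 0.9998). Lta4h, which makes leukotriene B4, read 13.6 and 13.5 against 14.2. A dimmer probe set of Lta4h read 3.48 and 1.26 against 2.18, so the depleted arrays stood on both sides of wild type there.

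In the IL-25 and type 2 circuit 4 of 6 tested genes were higher in both depleted arrays and 1 lower, where 39.0% and 19.5% of all genes were. Il13ra1, a subunit of the IL-13 receptor, read 66.4 and 63.1 in the depleted arrays against 41.6 in wild type, a difference of 0.64 (SE 0.41, limma adjusted p = 0.9998). Of its other 4 probe sets, the brightest read 19.97 and 28.4 against 15.6. The next read 12.53 and 20.7 against 12.50, and the one after it 8.87 and 12.7 against 8.92. The dimmest, under the array median, read 0.582 and 0.670 against 0.722. Depleted array 1 thus had no settled side for Il13ra1. Il33, an epithelial and stromal alarmin, read 2.17 and 3.99 against 6.19, a difference of -1.01 (SE 0.52, limma adjusted p = 0.9998). Both depleted arrays were lower than wild type, depleted array 1 by more. Traf3ip2, the adaptor of IL-17 family receptors, read 4.11 and 4.52 against 3.55, and Stat6, which carries the IL-13 signal, read 34.3 and 34.4 against 33.1. The other probe set of Stat6 read 8.09 and 10.3 against 8.70, with wild type between the depleted arrays, so Stat6 has no settled side.

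For tuft cell structure and identity 33 of 42 listed symbols were tested. Of these, 12 were higher and 5 lower in both depleted arrays, where 39.0% and 19.5% of all genes were. The glycogen phosphorylase Pygl read 2.75 and 1.55 in the depleted arrays against 1.16 in wild type. Pik3r5, a regulatory subunit of PI3K gamma, read 2.15 and 1.70 against 1.14. Inpp5d, the lipid phosphatase SHIP1, read 2.96 and 2.94 against 1.96, and its other probe set read 2.39 and 2.16 against 2.07. Gprc5c, an orphan G protein-coupled receptor, read 1.55 and 1.25 against 0.857, with a dim probe set at 0.245 and 0.055 against 0.238. These 4 genes were higher in both depleted arrays at their brightest probe set, and none was called. Sh2d6, an SH2 domain gene of tuft cells likewise named with its values known, read 7.03 and 2.38 against 4.04, so wild type lay between the depleted arrays.

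Markers of other secretory cells had the same order of depleted arrays. Over all 11885 genes at their brightest probe set, 49.8% read above wild type in depleted array 1 and 69.7% in depleted array 2, with median differences of -0.00 and 0.22, and the counts of markers are to be read against these shares. For goblet cells, 7 of 8 listed markers were measured and each of the 7 read above wild type in depleted array 1 and 6 of them in depleted array 2, with medians of 0.76 and 0.34 and summed levels of 778 and 652 in the depleted arrays against 485 in wild type. Depleted array 1 read above depleted array 2 in 6 of the 7. For enteroendocrine cells, 7 of 7 markers were higher in depleted array 1 and 4 in depleted array 2, with medians of 0.55 and 0.09 and summed levels of 178 and 119 against 116. Depleted array 1 read above depleted array 2 in all 7, and in depleted array 2 the count and median of these markers lay under those of all genes. B cell markers ran the other way, with 1 of 8 higher than wild type in depleted array 1 and 4 in depleted array 2, and summed levels of 18.1 and 40.9 against 41.5. Markers of M cells, which carry antigen across this epithelium, were higher in 6 of 10 in depleted array 1 and 10 of 10 in depleted array 2, with summed levels of 405 and 500 against 350. None of these markers was at 0 on all 3 arrays, and none was called. The part that cell composition, RNA quality or the sex of the animals has in the tuft cell values was not tested.

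**Figure D3:**
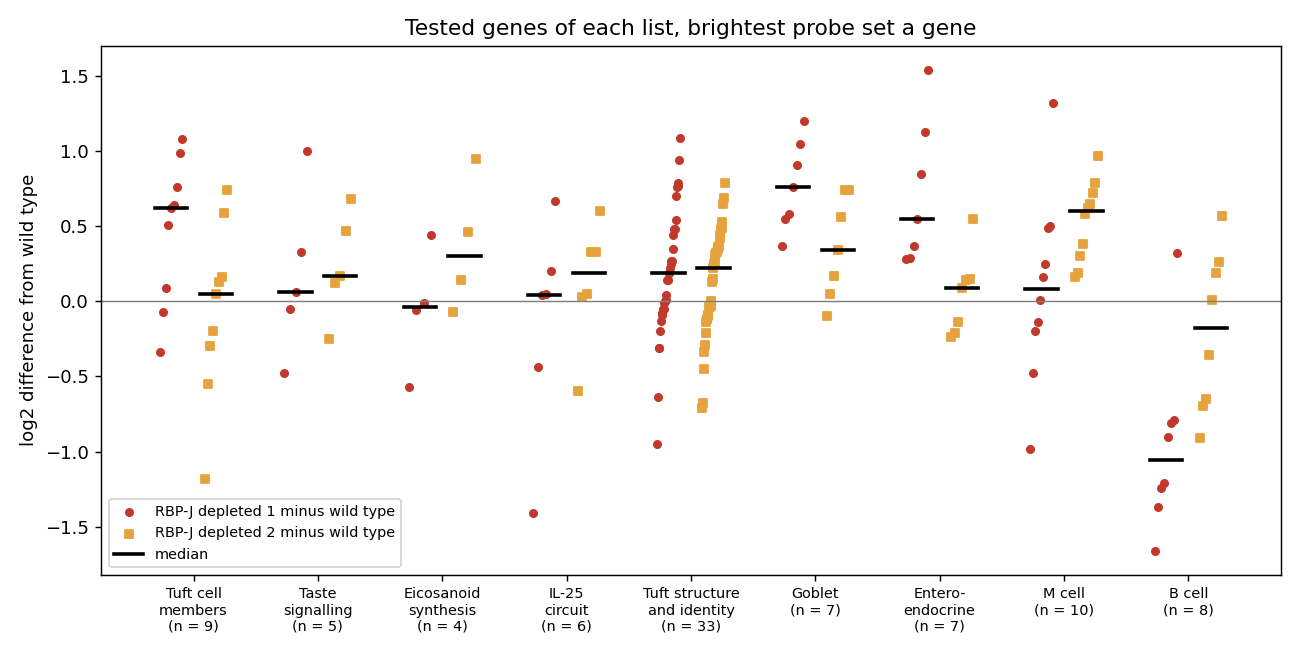
Log2 difference from wild type of each tested gene at its brightest probe set, by list, with red circles for RBP-J depleted array 1, orange squares for array 2 and a black bar at the median of each. The tuft cell members have medians of 0.62 and 0.05, goblet markers 0.76 and 0.34, enteroendocrine markers 0.55 and 0.09, M cell markers 0.08 and 0.60, and B cell markers -1.06 and -0.17.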

How the data were processed

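Total RNA was labelled as biotinylated cRNA and hybridised to Affymetrix arrays, per the labels' protocols. The authors deposited linear-scale intensities, for which the submitters' processing notes name MAS5, and each array has a median of 1 over 45101 probe sets. Detection calls were not used here. Precision is limited by the number of arrays. In the platform annotation 34945 of the 45037 non-control probe sets carried a single gene symbol, 932 carried several, and 9160 have no entry and are unnamed here. The genes were matched to RefSeq (GRCm38.p6) by Entrez number.

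Values were used as log2(value + 0.248). The 27027 probe sets whose mean over the 3 arrays was at or above 0.598, the 40th percentile, were tested in R 4.3.3 with limma 3.58.1 (lmFit, eBayes with an intensity trend), RBP-J depleted minus wild type, with Benjamini-Hochberg adjustment over all of them and a threshold of 0.05. The fit has 1 residual degree of freedom a probe set, to which eBayes added 207 prior degrees of freedom, and it assumes that the lone wild type array varies like the depleted arrays. The script was tested on simulated data. Alternatives changed the normalization, pseudocount, filter, variance model and unit of the fit, or left out a depleted array.

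The members, the lists and the naming rule were chosen with earlier results of these data known. Every member probe set is given. From each further tuft cell list up to 4 tested genes are named, those on the same side of wild type in both depleted arrays with the largest smaller difference. Listed symbols without a probe set of their own were not analysed here.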

Additional observations from a re-analysis of the deposited data

How the results depend on the processing

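The count of called member probe sets was 0 under every alternative run with a test, and the sign of each tested member's difference was kept under quantile normalization, the same 75th percentile, a median difference of 0, a pseudocount of 1, no filter, the 60th percentile filter, eBayes without trend and the brightest probe set a gene. The count over all probe sets was 24 as reported, 9 when arrays shared a 75th percentile, 6 after quantile normalization, 2 without a filter, 15 at the 60th percentile filter and 10 when the model was fitted to 1 probe set a gene. Fewer probe sets were tested in the last 2, and the cause of the other changes was not tested. The prior degrees of freedom also moved, from 207 as reported to 15.2 with the same 75th percentile, 10.1 after quantile normalization and 5.86 without a filter. Member probe sets higher than wild type in both depleted arrays numbered 10 as reported and 8 after quantile normalization. They numbered 6 with the same 75th percentile and 6 with a median difference of 0. At the brightest probe set a gene, where 9 were tested, they numbered 5. The shares over everything tested were 35.9%, 30%, 31.7%, 30.1% and 39.0% in that order. Leaving out the first or the second depleted array, with no test, gave 10 and 14 of the 17 higher than wild type. Of all 27027 tested probe sets, 17463 and 13083 were. The 17 include 2 Dclk1 probe sets that passed the filter only through depleted array 1. The median difference of the tested members was 0.58, and 0.13 and 0.88 without the first and the second. Leaving out either depleted array in turn gave -0.09 to 1.67 for Dclk1 1424270_at, -0.52 to 0.88 for Dclk1 1436659_at and -0.20 to 0.62 for Alox5, which turned negative without depleted array 1, and -0.30 to 0.09 for Rgs13, which turned positive without depleted array 2. No paired analysis was possible because the wild type group has 1 array and the labels give it no replicate number.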
